A study of Mus musculus with 12 samples.

Results

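The Ly6 genes measured here were 6 protein-coding genes of mouse chromosome 15, Ly6a, Ly6c1, Ly6c2, Ly6d, Ly6e and Ly6g, found by matching their symbols to the Ensembl IDs of the count table. The table held 37620 genes, 23039 of them with at least 1 count, and all 6 were among the latter. They were measured by RNA-seq in bone endothelial cells (BECs) of C57/Bl6 mice, labelled as tibial and sorted on endomucin, a surface sialomucin of bone capillaries. The mice were females or males of 2 or 65 weeks with no other treatment or allele in their labels, which gave 4 groups of 3 libraries. Nothing in the labels says whether the libraries of a group came from separate mice, so p-values measure the spread between these libraries. The study asked how BECs differ between the sexes and how they age.

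Ly6 proteins are small, disulphide-rich surface proteins, most of them tethered to the outer membrane leaflet by a glycosylphosphatidylinositol anchor. In the bone marrow they serve as lineage antigens. Ly6a is Sca-1, the antigen of haematopoietic stem and progenitor cells, which is also found on endothelium. Ly6c1 and Ly6c2 encode the Ly6C antigen, the first known from endothelial cells and the second from inflammatory monocytes and other myeloid cells. Ly6d marks lymphoid progenitors committed to the B lineage and B cells, and Ly6g is the antigen of neutrophils. Ly6e is broadly expressed and, like Ly6a, is induced by interferons.

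The Ly6c1 and Ly6c2 pair is shown first, because the values of these near-identical copies went in opposite directions with age. The lines below give coding bases 1 to 300 of each from the GENCODE M39 transcripts, with the bases that differ between both genes in capitals.
Ly6c1: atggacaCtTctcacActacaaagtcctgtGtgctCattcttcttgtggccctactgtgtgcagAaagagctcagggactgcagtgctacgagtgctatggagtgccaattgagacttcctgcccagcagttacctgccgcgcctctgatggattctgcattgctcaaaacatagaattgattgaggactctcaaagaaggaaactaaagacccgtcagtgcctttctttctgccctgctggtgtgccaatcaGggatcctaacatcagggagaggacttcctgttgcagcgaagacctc
Ly6c2: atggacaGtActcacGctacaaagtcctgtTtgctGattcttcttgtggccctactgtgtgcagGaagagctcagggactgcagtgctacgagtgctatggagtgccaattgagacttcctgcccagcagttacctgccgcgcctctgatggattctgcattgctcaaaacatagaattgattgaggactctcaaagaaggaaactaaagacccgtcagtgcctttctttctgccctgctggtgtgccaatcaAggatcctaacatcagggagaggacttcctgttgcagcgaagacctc
Of the 393 coding bases 384 were identical (97.7%), and 7 of the differing bases lie in the stretch shown. Ly6a shared 81.8% of aligned coding positions with Ly6c1 and 83.1% with Ly6g, whereas Ly6d and Ly6e shared 43.2 to 51.4% with the other members. Gaps were counted as positions. The coding sequence of Ly6d had 561 bases, against 390 to 402 in the other members, so gaps lower its values. A read of 100 nt that lies in an identical stretch cannot by itself be assigned to 1 gene. Such windows made up 15.1% of the 989 windows of 100 bases in the Ly6c1 transcript (114 with Ly6c2, the others with Ly6a) and 15.4% of the 738 windows of Ly6c2. Ly6d and Ly6g had 0 such windows. The transcripts of Ly6a (9.04% of windows) and Ly6e (16.3%) shared such windows with Gm28068 and Gm62552. The methods of the study name paired-end reads, so a mate outside such a stretch may place the pair. The shares of windows are therefore not shares of unassigned pairs. Windows were compared on both strands, and the strand of these matches was not recorded. Without strand in the counting the reads of both partners cannot be told apart. How reads that map to several places and strand were handled is not stated, so values of Ly6c1 and Ly6c2 are given as uncertain to that extent.

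Reference promoters were at hand for 3 of the 6 members, and these are shown to set Ly6c1, which fell with age, beside Ly6c2 and Ly6g, which rose. Each window holds 300 bases around a RefSeq transcription start, from which positions are counted (GRCm38.p6, minus strand for Ly6c1 and Ly6c2, plus strand for Ly6g, each written in the direction of transcription), and capitals mark motif matches.
Ly6c1, chr15:75048788-75049087: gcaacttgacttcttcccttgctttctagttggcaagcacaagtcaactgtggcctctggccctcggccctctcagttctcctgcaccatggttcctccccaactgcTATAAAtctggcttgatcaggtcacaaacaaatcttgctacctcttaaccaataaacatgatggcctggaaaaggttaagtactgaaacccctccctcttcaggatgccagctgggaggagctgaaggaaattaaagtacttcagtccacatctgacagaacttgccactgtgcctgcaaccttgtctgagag
Ly6c2, chr15:75111922-75112221: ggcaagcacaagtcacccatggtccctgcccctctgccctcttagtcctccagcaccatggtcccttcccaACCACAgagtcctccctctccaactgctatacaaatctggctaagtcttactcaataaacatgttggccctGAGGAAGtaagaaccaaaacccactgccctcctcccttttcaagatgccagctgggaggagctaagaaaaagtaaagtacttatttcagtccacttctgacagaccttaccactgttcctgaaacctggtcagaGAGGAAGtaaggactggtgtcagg
Ly6g, chr15:75155011-75155310: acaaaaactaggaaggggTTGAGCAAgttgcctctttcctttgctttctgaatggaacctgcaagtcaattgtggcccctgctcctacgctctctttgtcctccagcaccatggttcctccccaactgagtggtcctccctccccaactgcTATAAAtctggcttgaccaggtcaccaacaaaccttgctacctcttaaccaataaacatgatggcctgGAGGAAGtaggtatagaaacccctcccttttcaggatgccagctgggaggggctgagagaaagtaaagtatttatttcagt
Motifs were searched on both strands. Ly6c1 and Ly6g held TATAAA (the TATA box sequence, in 13.6% of all 32851 promoter windows), at positions -143 and -99, and Ly6c2 did not. Whether these matches act as a TATA box at those positions was not tested. Ly6c2 and Ly6g held GAGGAAG (the PU.1 element, 13.6% of windows), at positions -108 and 27 in Ly6c2 and -31 in Ly6g. In Ly6c1 the end of the window shown cuts a GAGGAAG that is whole in the window of a second start, so its absence there comes from where the window ends. Ly6c2 held TGTGGT (the RUNX element, 16.8%) and Ly6g held TTGCNNAA (the C/EBP element, 10.8%), each on the opposite strand. The interferon response element core (GAAA, any 2 bases and GAAA, in 3.44% of windows) and TTCNNNGAA (the STAT element, 8.3%) were not in any of these windows.

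Library totals were between 26044743 and 44569600 counts and were lowest in 65-week males. In each library the summed level of 15 endothelial marker genes was between 3262 and 5835 CPM (counts scaled by the library total) at 2 weeks and between 303 and 419 CPM at 65 weeks. All 15 fell with age in both sexes, to a median log2 fold change of -4.17 in females and -4.41 in males, and none of them was at 0. The summed level of 12 neutrophil genes was 5529 to 7576 CPM at 2 weeks and 12633 to 27780 CPM at 65 weeks, that of 10 B cell genes 265 to 371 and 454 to 2048 CPM, and that of 8 monocyte genes 934 to 1185 and 1120 to 1974 CPM. Of the 10 B cell genes 9 rose in each sex, and of the 8 monocyte genes 6 rose and 2 fell in females and 5 rose and 1 fell in males. The summed level of 7 osteoblast and stroma genes went the way of the endothelial genes, from 5039 to 7894 CPM at 2 weeks to 928 to 1566 CPM at 65 weeks, and 7 of 7 fell in each sex. The libraries thus held transcripts of other marrow and bone cells beside the labelled cell type. In bulk RNA, fewer cells of a type and less RNA per cell cannot be told apart, and the part of these shifts in the results on Ly6 genes was not tested beyond the ratios given below. Male 65-week replicate 3 stood apart from the other male libraries of that age, with 2048 CPM of B cell genes against 454 and 576 CPM and 18782 CPM of neutrophil genes against 26319 and 27780 CPM. Results that rest on it are given with and without it.

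Levels were first ordered within each group as CPM per kilobase of exon, with the exons of all transcripts of a gene joined (GENCODE M39). This length was 3056 bases for Ly6c2, 3305 for Ly6c1 and 875 for Ly6d. The single transcripts used for the windows above had 837, 1088 and 811 bases. The order thus depends on the length chosen, and by CPM alone the mean of Ly6c2 was above that of Ly6d in every group. Ly6e was highest in every group, at 149 ± 4.94 in 2-week females, 143 ± 2.78 in 2-week males, 280 ± 15.6 in 65-week females and 194 ± 71.0 CPM per kb in 65-week males (SD, n = 3 each). At 2 weeks Ly6d (35.9 ± 4.75 in females and 27.7 ± 6.30 CPM per kb in males) and Ly6c2 (33.5 ± 6.23 and 21.3 ± 3.10) followed and overlapped each other. Ly6c1 (8.27 ± 1.86 and 11.98 ± 2.13 CPM per kb) came next, apart from its neighbours in males and overlapping Ly6g in females. Ly6g and Ly6a were lowest and overlapped each other, at 5.25 to 6.87 CPM per kb on average. At 65 weeks the order by this measure was Ly6e, Ly6d, Ly6c2, Ly6g, Ly6a and Ly6c1 in both sexes. In 65-week females each member lay apart from the next, and in 65-week males the upper 4 overlapped their neighbours. Ly6c1 had moved to the lowest place, at 0.609 ± 0.0359 CPM per kb in females and 0.528 ± 0.119 in males.

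**Figure D1:**
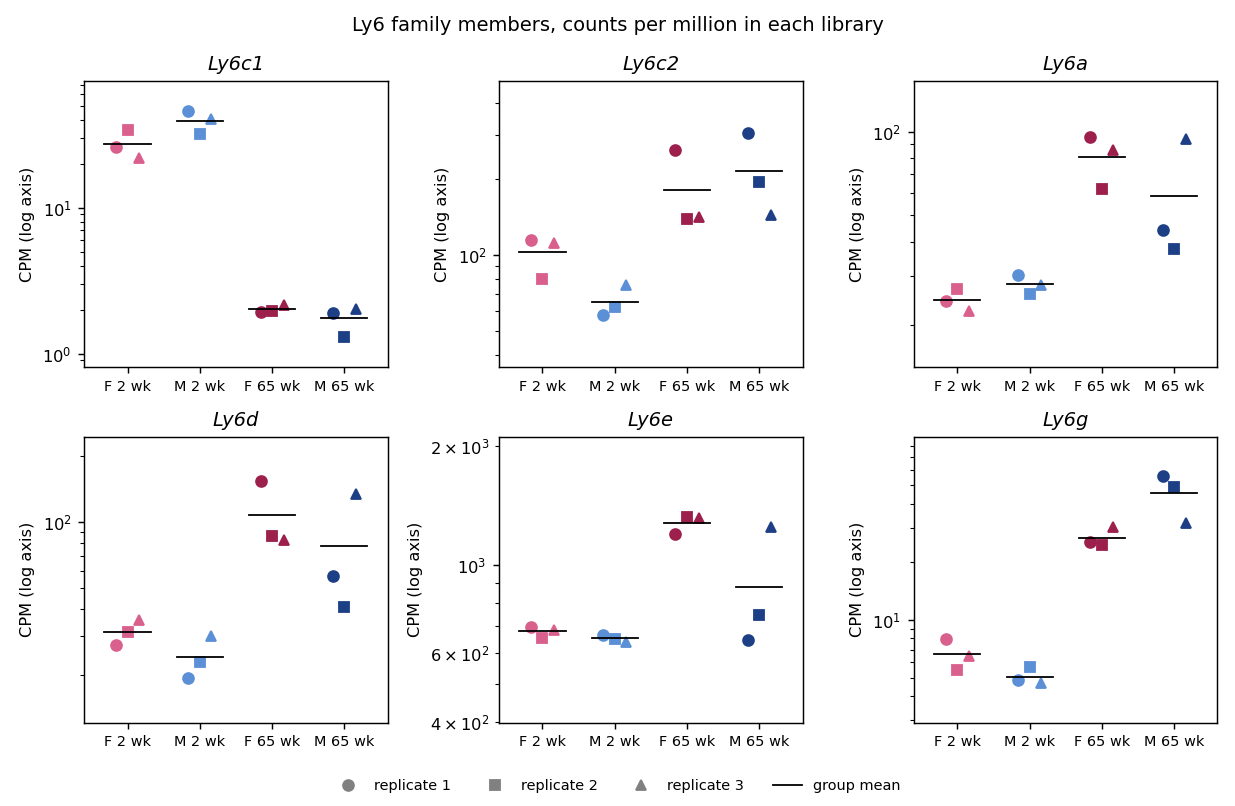
Each panel plots 1 Ly6 gene, with CPM on a log axis against the 4 groups (F female, M male), a symbol for each replicate and a line at the group mean. Ly6c1 falls to about 2 CPM at 65 weeks, the other genes are higher there except Ly6e in males, where the ages overlap, and male 65-week replicate 3 (dark blue triangle) lies high for Ly6a, Ly6d and Ly6e and low for Ly6c2 and Ly6g.

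The age comparison set 65 against 2 weeks within each sex. By the quasi-likelihood test of edgeR (adjusted p under 0.05 over all genes) all 6 members differed in females, against 59.7% of the 15120 genes tested. In females 5 members rose, against 30.2% of genes called higher, and 1 fell, against 29.5% called lower. In males 5 of the 6 differed, against 55.5% of 14959 genes, with 4 higher (27.0%) and 1 lower (28.5%). The libraries of both ages did not overlap for 6 of 6 members in females, against 69.2% of genes, and for 5 of 6 in males, against 65.4%. The median log2 fold change of the members was 1.45 in females and 1.47 in males, beside 0.0056 and 0.0080 over all genes. The 6 genes were chosen with earlier results of these data known, and the shares are a background, not a test of the list.

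Ly6c1 (ENSMUSG00000079018, GRCm39 chromosome 15, 74915847 to 74920686, minus strand) was the member that fell. Its level was 26.1, 34.0 and 21.9 CPM in the 2-week females and 1.93, 1.97 and 2.15 CPM in the 65-week females. In males it was 46.2, 32.2 and 40.3 CPM at 2 weeks and 1.90, 1.30 and 2.03 CPM at 65 weeks. Both ages lay far apart in each sex, and each 65-week value rested on 35 to 67 counts. In females it fell by 3.62 on the log2 scale, or 12.3-fold (edgeR SE 0.181, adjusted p = 3.38e-06). In males it fell by 4.39, or 20.9-fold (edgeR SE 0.221, adjusted p = 4.24e-06).

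Ly6c2 (ENSMUSG00000022584, chromosome 15, 74980003 to 74988467, minus strand), the near-identical copy, rose. Its level was 115, 80.5 and 112 CPM in 2-week females and 260, 139 and 142 CPM in 65-week females. In males it was 57.6, 62.2 and 75.8 CPM at 2 weeks and 305, 195 and 144 CPM at 65 weeks. The ages did not overlap in either sex, and the 65-week libraries were widely spread. The log2 change with age was 0.94 in females (edgeR SE 0.260, adjusted p = 0.0139) and 1.85 in males (edgeR SE 0.285, adjusted p = 0.00108). In females it was 0.59 without 65-week replicate 1, the library with the highest value, and remained called (edgeR adjusted p = 0.0219).

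The ratio of both copies does not depend on the scaling of libraries. Since Ly6c2 rose and Ly6c1 fell without overlap in both sexes, a difference of their ratio between ages follows from the levels above. The p-value of this ratio is therefore no further support. The log2 ratio of Ly6c2 to Ly6c1 was 1.91 ± 0.588 in 2-week females and 0.72 ± 0.354 in 2-week males, and 6.41 ± 0.569 and 6.89 ± 0.653 in the 65-week groups (SD, n = 3 each). It was higher in all 6 libraries of 65 weeks than in any of 2 weeks, by 5.33 on average (exact two-sided permutation of age within sex, p = 0.005, which is the lowest p possible with 400 relabelings; adjusted p = 0.01 over 8 ratios). Adding the counts of both copies removes the question of which copy a counted read belongs to, but does not restore reads left out of the counts. This sum rose by 0.62 in females (edgeR adjusted p = 0.0494) and by 1.18 in males (edgeR adjusted p = 0.00758).

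Ly6g (ENSMUSG00000022582, chromosome 15, 75027089 to 75030982, plus strand), the neutrophil antigen, rose in both sexes. Its level was 7.90, 5.46 and 6.50 CPM in 2-week females and 25.4, 24.4 and 30.2 CPM in 65-week females. In males it was 4.85, 5.65 and 4.68 CPM at 2 weeks and 55.8, 48.7 and 31.7 CPM at 65 weeks. No 65-week library overlapped the 2-week libraries. The rise was 4.41-fold in females (log2 2.14, SE 0.165, edgeR adjusted p = 2.01e-05) and 9.80-fold in males (log2 3.29, SE 0.250, edgeR adjusted p = 2.73e-05).

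Ly6a (ENSMUSG00000075602, chromosome 15, 74863840 to 74869880, minus strand), the stem cell antigen Sca-1, stood at 24.4, 26.9 and 22.5 CPM in 2-week females and 95.4, 62.0 and 85.6 CPM in 65-week females. In males it stood at 30.2, 25.9 and 27.8 CPM at 2 weeks and 44.1, 37.5 and 94.5 CPM at 65 weeks. All 65-week values were above all 2-week values, and male 65-week replicate 3 was at the level of the females. The rise was 3.61-fold in females (log2 1.85, SE 0.152, edgeR adjusted p = 2.76e-05) and 2.24-fold in males (log2 1.17, SE 0.302, edgeR adjusted p = 0.0125). The male log2 fold change was 0.67 when 65-week replicate 3 was left out (edgeR adjusted p = 0.00198), and its call was lost when 2-week replicate 2 was (log2 1.11, edgeR adjusted p = 0.0501).

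Ly6d (ENSMUSG00000034634, chromosome 15, 74633902 to 74635597, minus strand), the B lineage antigen, was measured at 27.3, 31.3 and 35.6 CPM in 2-week females and 153, 86.5 and 82.5 CPM in 65-week females. Male levels were 19.4, 23.0 and 30.2 CPM at 2 weeks and 56.7, 40.8 and 135 CPM at 65 weeks. The ages did not overlap, and the highest male value was again that of replicate 3. It rose 3.75-fold in females (log2 1.91, SE 0.241, edgeR adjusted p = 0.000269) and 3.42-fold in males (log2 1.77, SE 0.401, edgeR adjusted p = 0.00693), with a male log2 fold change of 1.14 without that replicate (edgeR adjusted p = 0.00255).

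Ly6e (ENSMUSG00000022587, chromosome 15, 74826860 to 74847454, plus strand), the broadly expressed member, was at 697, 654 and 685 CPM in 2-week females and 1194, 1320 and 1313 CPM in 65-week females. In males its level was 664, 651 and 639 CPM at 2 weeks and 646, 748 and 1250 CPM at 65 weeks. The female ages lay apart with little spread, whereas the male ages overlapped. It rose 2.06-fold in females (log2 1.05, SE 0.0821, edgeR adjusted p = 2.22e-05). In males the log2 change of 0.54 was not called (edgeR SE 0.210, adjusted p = 0.0604) and was 0.22 without male 65-week replicate 3 (edgeR adjusted p = 0.114). It was called in males by DESeq2 (adjusted p = 0.044), with all 12 libraries in 1 edgeR model (adjusted p = 0.0163) and without male 65-week replicate 1 (edgeR adjusted p = 0.0365).

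**Figure D2:**
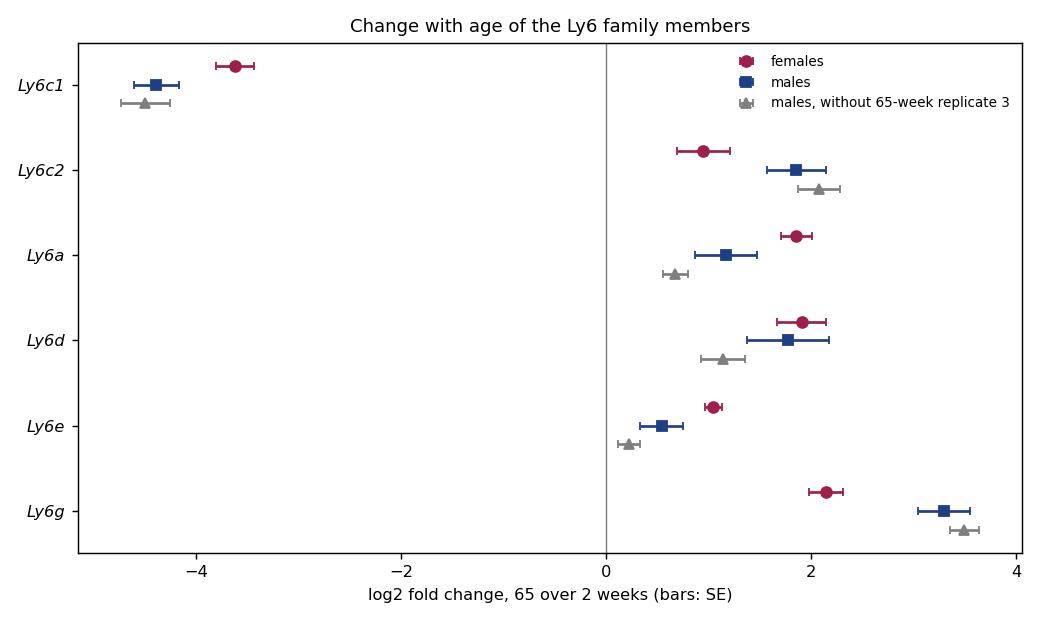
Points give the log2 fold change of 65 over 2 weeks for each Ly6 gene, with bars of 1 SE, in females, in males and in males without 65-week replicate 3. Ly6c1 lies at -3.62 and -4.39, the other genes lie to the right of 0, and leaving out that library moves Ly6a, Ly6d and Ly6e towards 0.

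Members were then set against the marker genes of the cells they are known from, within each library. Such a log2 ratio keeps its value under any scaling of the library. Of 8 ratios, 5 differed between ages (an exact two-sided permutation within sex, adjusted p under 0.05). Among the 5 are Ly6c2 to Ly6c1 and both ratios of Ly6a, whose parts had moved in opposite directions without overlap of ages. The outcome for these was fixed by the levels and is not a further test. The log2 ratio of Ly6g to the 12 neutrophil genes was -10.05 ± 0.165 and -10.14 ± 0.174 in 2-week females and males and -9.11 ± 0.142 and -9.08 ± 0.126 at 65 weeks (SD, n = 3 each). All 6 libraries of 65 weeks lay above those of 2 weeks, by 1.00 on average (permutation p = 0.005, adjusted p = 0.01). The transcript of the antigen thus rose more than the summed neutrophil genes, of which 11 rose and 1 fell in females and 11 rose in males. The median log2 fold change of these 12 was 1.27 in females and 2.44 in males. Some single neutrophil genes rose about as much as Ly6g. Those given here, Cd177 (outside the list of 12) and Ngp (within it), are among the 3 genes nearest to Ly6g in profile. Their like rise follows from that nearness and is no further support. Cd177 changed by 2.14 and 3.35 on the log2 scale (females, then males), beside 2.14 and 3.29 for Ly6g. Mean levels of Ngp were 763 and 515 CPM at 2 weeks and 2929 and 4536 CPM at 65 weeks. Mmp9, highest of the list in 2-week males (1636 CPM), was not among its top 3 at 65 weeks, and its part was not tested.

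For Ly6c1 the ratio to the 15 endothelial genes moved little beside the fall of the gene itself. It was -7.31 ± 0.0838 and -7.08 ± 0.107 at 2 weeks and -7.52 ± 0.204 and -7.52 ± 0.282 at 65 weeks (females, then males; SD, n = 3 each). The ages overlapped, and the mean difference was -0.33 (permutation p = 0.015, adjusted p = 0.024). Its direction depended on the summary, since with the mean log2 CPM of the list in place of the sum the difference was 0.23 (permutation adjusted p = 0.0613). Without male 2-week replicate 1 (-0.30) or 3 (-0.32) the adjusted permutation p was 0.056.

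Ly6a moved away from both lists it was set against. Its log2 ratio to the endothelial genes rose by 5.11, from -7.44 ± 0.248 in 2-week females and -7.57 ± 0.0543 in 2-week males to -2.23 ± 0.461 and -2.56 ± 0.613 (SD, n = 3 each; permutation p = 0.005, adjusted p = 0.01). Its ratio to 8 stem and progenitor genes rose by 2.61 (permutation p = 0.005, adjusted p = 0.01), while the summed level of those genes went from 291 to 466 CPM at 2 weeks to 102 to 209 CPM at 65 weeks. Of these 8 genes, 2 rose and 4 fell in females, and 1 rose and 5 fell in males.

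The ratio of Ly6d to the 10 B cell genes was -3.46 ± 0.0837, -3.59 ± 0.256, -3.56 ± 0.229 and -3.58 ± 0.305 in 2-week females, 2-week males, 65-week females and 65-week males (SD, n = 3 each). A difference between ages was not shown (-0.04, permutation p = 0.78). For early B lineage genes, of which 6 were in the table, the summed level was 57.2 to 83.2 CPM at 2 weeks and 22.6 to 70.4 CPM at 65 weeks. Of these 6, 1 rose and 2 fell in females, and 1 rose and 4 fell in males, so that Ly6d rose while most called genes of this list fell. Ly6e to 20 interferon-induced genes gave a difference of 0.16 (permutation p = 0.36, adjusted p = 0.411). Of those 20 genes 12 rose and 1 fell in females, and 7 rose and 2 fell in males. Ly6c2 to 8 monocyte genes differed by 0.77 with overlap (permutation p = 0.095, adjusted p = 0.127), and the difference was 0.03 in females and 1.496 in males. With the most abundant gene of the list left out, the ratios of Ly6c2 (1.24, permutation adjusted p = 0.0175) and Ly6e (0.37, permutation adjusted p = 0.0292) passed the threshold.

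**Figure D3:**
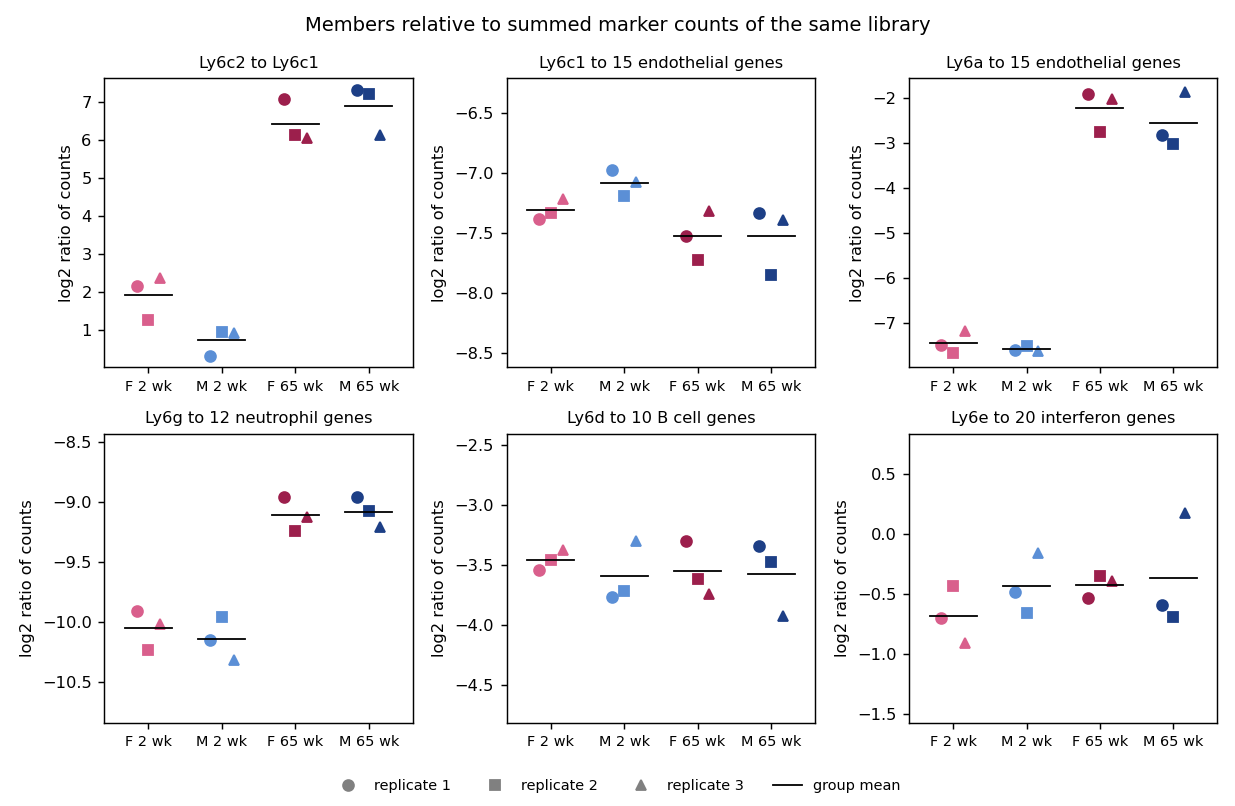
Each panel plots the log2 ratio of counts of a Ly6 gene to Ly6c1 or to the summed marker genes of the same library, by group, with a symbol for each replicate and a line at the group mean. Ly6c2 to Ly6c1, Ly6a to endothelial genes and Ly6g to neutrophil genes are higher in all 65-week libraries, while Ly6d to B cell genes stays between -3.93 and -3.30.

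Between the sexes, male over female, 0 of 6 members were called at 2 weeks, against 0.0332% of 15081 genes (edgeR). At an unadjusted p under 0.05 there were 4 of 6, against 17.8% of all genes, and DESeq2 called 1 of 6, against 3.18%. Ly6c2 was 57.6 to 75.8 CPM in males and 80.5 to 115 CPM in females, without overlap, with a log2 difference of -0.67 (edgeR SE 0.164, adjusted p = 0.213, DESeq2 adjusted p = 0.0134). It was 1 of 6 members whose libraries did not overlap, against 21.7% of genes. Ly6c1 had a value of 0.52 (edgeR SE 0.168, adjusted p = 0.229), Ly6d -0.40, Ly6g -0.41, Ly6a 0.17 and Ly6e -0.08. The summed endothelial genes were 3262 to 5487 CPM in females and 4715 to 5835 CPM in males at this age, and their part in these values was not tested.

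At 65 weeks 0 of 6 were called between the sexes as well, against 0.042% of 14287 genes, and 2 of 6 had an unadjusted p under 0.05, against 10.4%. DESeq2 called 1 of 6, against 2.82%. Ly6g was at 24.4 to 30.2 CPM in females and 31.7 to 55.8 CPM in males (log2 0.77, SE 0.225, edgeR adjusted p = 0.272, DESeq2 adjusted p = 0.0346). It was the 1 member without overlap, against 15.5% of genes. Ly6e was at -0.56 (edgeR SE 0.204, adjusted p = 0.387), Ly6a at -0.50, Ly6d at -0.51, Ly6c1 at -0.22 and Ly6c2 at 0.26 on the log2 scale. The summed level of the 20 interferon-induced genes was 1682 to 1725 CPM in 65-week females and 974 to 1207 CPM in 65-week males, without overlap, while 0 of the 20 were called between the sexes. The group means of Ly6a and Ly6e were lower in males as well, but the male libraries did not follow the same order. Male replicate 3 was highest for Ly6a (94.5 CPM) and Ly6e (1250 CPM). Its interferon sum of 1110 CPM was below the 1207 CPM of replicate 2. The part of the interferon-induced genes in the values of Ly6a and Ly6e was not tested.

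One male library of 65 weeks set this count, and with that library, replicate 3, left out 3 of 6 members were called, against 5.65% of genes. Ly6a was then at -0.97 (edgeR SE 0.184, adjusted p = 0.0261) and Ly6e at -0.86 (edgeR SE 0.0941, adjusted p = 0.00643), both lower in males. Ly6g was at 0.99, higher in males (edgeR SE 0.129, adjusted p = 0.00866). Ly6d was at -1.12 and not called (edgeR SE 0.284, adjusted p = 0.0623). This library held the most B cell transcripts and the fewest neutrophil transcripts of the 65-week males, and for Ly6a, Ly6d, Ly6e and Ly6g it was the male library nearest to the females.

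**Figure D4:**
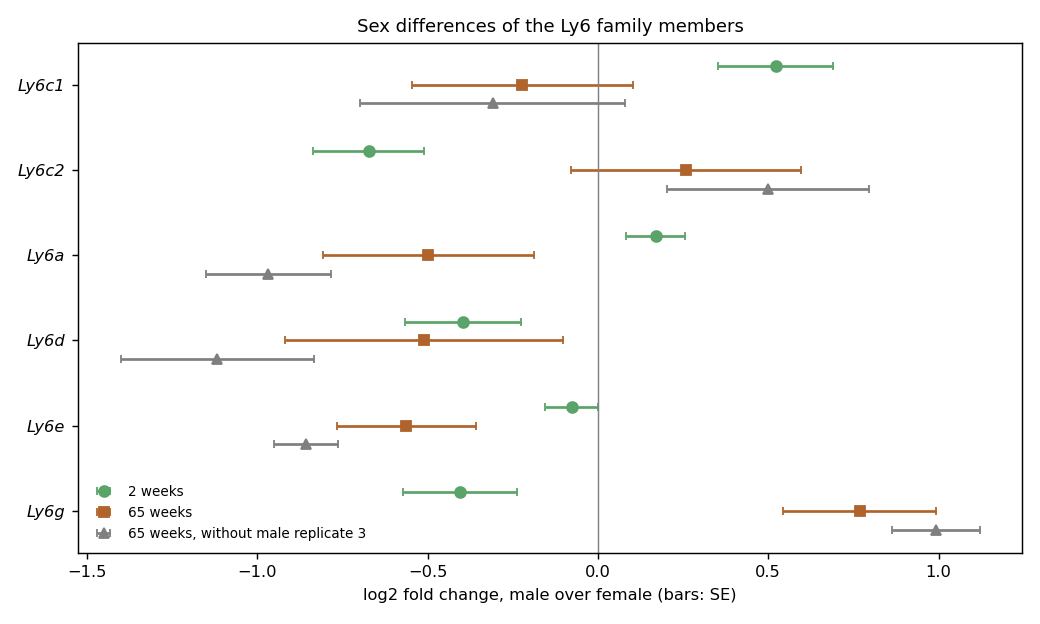
Points give the log2 fold change of males over females for each Ly6 gene with bars of 1 SE, at 2 weeks, at 65 weeks and at 65 weeks without male replicate 3. Without that library Ly6a, Ly6d and Ly6e lie further to the left (-0.97, -1.12 and -0.86) and Ly6g further to the right (0.99).

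Whether the age change differed between the sexes was tested with an interaction term fitted to the 12 libraries. The term passed for 0 of 6 members, against 0.00635% of 15747 genes (edgeR), and 2 of 6 had an unadjusted p under 0.05, against 11.9%. DESeq2 called 1 of 6, against 2.32%. These were Ly6g, whose rise was larger in males by a log2 difference of 1.15 (edgeR SE 0.302, adjusted p = 0.168, DESeq2 adjusted p = 0.0215), and Ly6c1 at -0.76 (edgeR SE 0.295, adjusted p = 0.333). Ly6c2 was at 0.90 (SE 0.421), Ly6a at -0.69, Ly6e at -0.51 and Ly6d at -0.14. With male 65-week replicate 3 left out, 3 of 6 members passed, namely Ly6g (1.40, edgeR adjusted p = 0.0128), Ly6a (-1.14, edgeR adjusted p = 0.0204) and Ly6e (-0.78, edgeR adjusted p = 0.0110), against 4.66% of genes. The male-to-female difference of Ly6g at 65 weeks stood beside a like order of the summed neutrophil genes, 12633 to 16886 CPM in females and 18782 to 27780 CPM in males. The ratio of Ly6g to them was -9.11 and -9.08 on average in the sexes.

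The genes with the most similar profiles were searched among 10713 protein-coding genes with a mean of at least 5 CPM, as the root mean square difference of centred log2(CPM + 0.5) over the 12 libraries. These are descriptions of libraries that fall into 2 age groups. Nearest to Ly6d were Ms4a1 (0.119), which encodes the B cell antigen CD20, Cd79a (0.167), a part of the B cell receptor, and Tnfrsf13c (0.184), the BAFF receptor. Nearest to Ly6g were Lcn2 (0.142), Cd177 (0.152) and Ngp (0.163), genes known from neutrophils. Nearest to Ly6c1 were Tmem47 (0.153), Ltbp4 (0.157) and Eng (0.163), the last encoding endoglin, a receptor of endothelial cells. For Ly6e they were Slc38a1 (0.0898), Pld4 (0.0906) and Nedd9 (0.107), and for Ly6a Cmah (0.178), Scd1 (0.198) and Ptpn22 (0.200). Ly6c2 had no gene as near, the first being Klf5 (0.309), Gadd45a (0.311) and Olfm4 (0.315).

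Other genes of the wider Ly6/uPAR family were examined from a list of 38, of which 34 were in the table. Of these, 8 had 0 counts in all 12 libraries and 26 had at least 1 count, 14 of them with a mean of at least 1 CPM in some group. In females 16 could be tested between ages, of which 5 rose and 6 fell. In males 16 could be tested, of which 6 rose and 6 fell. The median log2 fold change of those tested was 0.10 in females and -0.45 in males. These were 11 and 12 of 16 called, beside the 59.7% and 55.5% given for all genes.

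Gpihbp1, which carries lipoprotein lipase across the capillary endothelium, lies on the same chromosome (75468474 to 75471331) and fell most among the 14. Its level was 103, 127 and 79.7 CPM in 2-week females and 1.79, 1.55 and 1.16 CPM in 65-week females. In males it was 165, 117 and 166 CPM at 2 weeks and 2.31, 2.85 and 3.34 CPM at 65 weeks. No library of one age came near the other. In females it fell by 5.96 on the log2 scale (edgeR adjusted p = 1.64e-06). In males it fell by 5.605 (edgeR adjusted p = 1.25e-06). Ly6g6f, known from platelets, fell by 3.13 in females (edgeR adjusted p = 0.00017) and, in males, fell by 4.21 (edgeR adjusted p = 0.000522). Lypd1 and Lypd6, known as modulators of nicotinic receptors, fell in both sexes from 0.899 to 2.83 CPM at 2 weeks to 0 to 0.346 CPM at 65 weeks. Ly6g6d was called lower in females, where it went from 1.25 to 1.86 CPM down to at most 0.138 CPM, and had a log2 fold change of -1.62 in males (edgeR adjusted p = 0.062). The male call was made without 65-week replicate 2 (-2.71, edgeR adjusted p = 0.00374) or 3 (-1.16, edgeR adjusted p = 0.0481). Ly6g6c and Ly6g6e, both under 1 CPM, were called lower in males. Neither had a call in females, where Ly6g6c went from 0.218 to 0.522 CPM (8 to 20 counts) at 2 weeks to 0 counts at 65 weeks.

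Among the family genes that rose was Cd177, a surface protein of neutrophils, by 2.14 in females (edgeR adjusted p = 5.86e-06) and 3.35 in males (edgeR adjusted p = 8.9e-06). Plaur, the urokinase receptor, rose by 0.89 in females (edgeR adjusted p = 0.000396) and 1.81 in males (edgeR adjusted p = 6.11e-05). Ly6i, which lies between Ly6e and Ly6a (chromosome 15, 74851383 to 74855279) and shares 86.3% of aligned coding bases with Ly6a, rose by 3.32 in females (edgeR adjusted p = 2.06e-05) and 2.77 in males (edgeR adjusted p = 0.000484). Ly6k went from 0 to 0.163 CPM at 2 weeks (0 to 6 counts) to 1.15 to 9.85 CPM at 65 weeks, and Lypd6b from 0.0275 to 0.144 CPM (1 to 6 counts) to 0.469 to 1.501 CPM, both called in both sexes. Ly6g5b was called in males (2.25, edgeR adjusted p = 0.00383) and not in females (1.02, edgeR adjusted p = 0.114), and the interaction of sex and age was not called (1.22, edgeR adjusted p = 0.52). Cd59a, which protects cells from complement, fell by 0.61 in females (edgeR adjusted p = 0.0164) and stood at -0.34 in males (edgeR adjusted p = 0.2). Cd59b and Lynx1 were called in neither sex, but Lynx1, a modulator of nicotinic receptors, was called without female 65-week replicate 3 in females (0.45, edgeR adjusted p = 0.043) and without male 65-week replicate 3 in males (-1.33, edgeR adjusted p = 0.00203).

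Between the sexes edgeR called 0 of 14 family genes tested at 2 weeks and 0 of 12 at 65 weeks, beside the 0.0332% and 0.042% of all genes. At an unadjusted p under 0.05 there were 5 of 14 and 4 of 12, beside 17.8% and 10.4%. The nearest was Ly6i at 65 weeks, with 11.6, 19.4 and 15.3 CPM in females and 3.22, 4.63 and 5.14 CPM in males. All male libraries were below all female libraries. The log2 difference was -1.85 (edgeR SE 0.245, adjusted p = 0.0559), and it was called by DESeq2 (adjusted p = 4.41e-09) and by edgeR without the filter on low counts (adjusted p = 0.00329), with all 12 libraries in 1 model (adjusted p = 0.0174) or without male replicate 3 (adjusted p = 0.0109). At 2 weeks Ly6i was at 1.36, 1.63 and 2.09 CPM in females and 0.471, 0.551 and 1.05 CPM in males (log2 -1.34, edgeR adjusted p = 0.213, DESeq2 adjusted p = 0.0171).

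**Figure D5:**
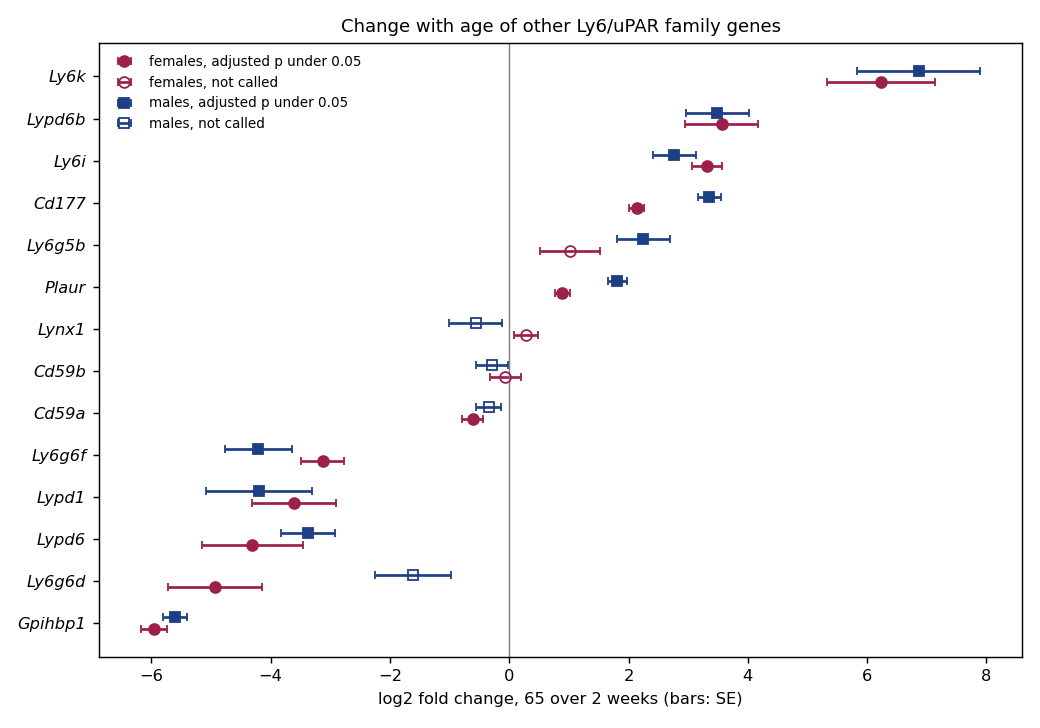
Points give the log2 fold change of 65 over 2 weeks with bars of 1 SE for the 14 other family genes with a mean of at least 1 CPM in some group, filled where edgeR called them. Gpihbp1 lies lowest, at -5.96 and -5.605. The values of Ly6k, Lypd6b, Lypd1, Lypd6 and, in females, Ly6g6d depend on the prior count. At the age with the lower level their libraries held 0 to 9 counts. This age is 2 weeks for Ly6k and Lypd6b and 65 weeks for the others.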

How the data were processed

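RNA-seq counts of 12 BEC libraries (female and male, 2 and 65 weeks, 3 each) were used. The authors deposited raw counts per gene, not normalised. The submitters' processing notes name TopHat2, HTSeq and mm9, whereas the methods of the study name STAR, featureCounts and GRCm39, and this was not resolved. Of 37620 Ensembl IDs 31052 were found in GENCODE M39 (99.3% of counts), from which names, coordinates and exon lengths were taken. The study kept the 3 samples of each set with the best RNA quality. The library kit was for total RNA and the label names polyadenylated RNA. Samples of 12 weeks were not analysed here.

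Members, gene lists and tests were chosen with earlier results of these data known. Named were all members, other family genes by calls and, from a mean of 1 CPM in some group, by value, and the 3 nearest profiles of each member. Cell type lists were described by calls and summed CPM. Genes were tested with edgeR 4.0.16 under R 4.3.3 (genes kept by filterByExpr at 10 counts, TMM scaling, two-sided quasi-likelihood test, threshold 0.05 after Benjamini-Hochberg adjustment over all genes tested) within each age or sex, without covariates. The fold change divided by the root of F gave its SE. Ratios used counts with 0.5 added and exact permutation. Scripts were tested on simulated data. Alternatives were DESeq2 1.42.0, other scalings, filters, thinning, summed Ly6c1 and Ly6c2, a single model of all libraries, blocking on replicate number, and omission of each library. Counts carry no molecular identifiers, so depth covers counting error only.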

Additional observations from a re-analysis of the deposited data

Results flagged for a closer look

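Cd177 and Plaur were singled out because the sexes were ordered one way at 2 weeks and the other way at 65 weeks, with no overlap of libraries at either age. Over all genes tested, the sexes did not overlap for 21.7% at 2 weeks and 15.5% at 65 weeks. The share of genes with both and a reversed order was not computed, so how unusual these genes are is not known. The 2-week levels of Cd177 were 110, 85.9 and 104 CPM in females against 66.4, 73.5 and 63.0 CPM in males. It reached 366, 424 and 412 CPM in 65-week females and 677, 741 and 488 CPM in 65-week males. The sex difference changed by 1.21 on the log2 scale between the ages and was not called (edgeR interaction, adjusted p = 0.118). The 2-week levels of Plaur were 23.4, 20.4 and 24.3 CPM in females against 17.1, 17.9 and 19.7 CPM in males. It reached 34.8, 36.8 and 43.8 CPM in 65-week females and 67.1, 60.5 and 48.2 CPM in 65-week males. Its change was 0.915 on the log2 scale and was not called either (edgeR interaction, adjusted p = 0.128). By DESeq2 both were called in the interaction (adjusted p = 0.000278 for Cd177 and 0.00592 for Plaur), and by edgeR without male 65-week replicate 3 they were as well (adjusted p = 0.00738 and 0.0124). The summed neutrophil genes had the same order, 6556 to 7576 CPM in 2-week females, 5529 to 5944 CPM in 2-week males, 12633 to 16886 CPM in 65-week females and 18782 to 27780 CPM in 65-week males, and their part in these values was not tested.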

How the results depend on the processing

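Age calls of the 6 members were 5 to 6 in females and 4 to 6 in males over the alternatives, 5 in females only with Ly6c1 and Ly6c2 summed and 4 in males with that sum or without male 2-week replicate 2. No member changed direction between ages under another scaling, filter, tool or library left out. Total count scaling put the median of all genes at -0.13 in females and -0.11 in males and gave 3668 genes higher and 5451 lower in females, against 4568 and 4462 with TMM. Summing both copies turned the sign of Ly6c1, by construction, to -0.33 and 0.25 between sexes at 2 and 65 weeks, 0.62 and 1.18 between ages in females and males, and 0.55 in the interaction. Members called by DESeq2 were 1 at 2 weeks, 1 at 65 weeks and 1 in the interaction, against 0. Leaving out 1 library gave 0 to 3 calls at 65 weeks and 0 to 3 in the interaction, 3 in each without male 65-week replicate 3. Values that changed sign with 1 library left out, none of them called, were Ly6c2 at 65 weeks (-0.10 to 0.62), Cd59b with age in females (-0.24 to 0.11), Ly6d in the interaction (-0.72 to 0.21) and the ratio of Ly6d to B cell genes (-0.10 to 0.046). With mean log2 CPM, which applies to the 7 ratios to a marker list, 3 of 7 were called against 4 of 7 with sums, since Ly6c1 to endothelial genes turned to 0.23. With 1 library left out 4 to 5 of all 8 ratios were called. Ly6c1 to endothelial genes also lost its call with a pseudocount of 5 (-0.21, adjusted p = 0.08). The cause of the other changes was not tested.

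Counts over all genes differed by more than 1.5 times. At 2 weeks they were 5 by edgeR, 417 by DESeq2, 8 with all 12 libraries in 1 model and 11 and 8 without female 2-week replicate 2 and male 2-week replicate 3. At 65 weeks they were 6, against 361 by DESeq2, 105 without a filter, 254 with all 12 libraries in 1 model, 10 with total count scaling, and 15 and 830 without male 65-week replicates 2 and 3. The interaction called 1, against 353 by DESeq2, 7 without a filter, 0 with thinned libraries, 0 to 2 without 1 of the other libraries and 750 without male 65-week replicate 3. Replicate numbers are shared between groups, but same-numbered libraries did not deviate together (correlations from -0.355 to 0.140), so they do not pair the libraries. With a replicate block the members called were 6 and 5 between ages, 0 between sexes and 0 in the interaction, as without it. Over all genes the block gave 8269 and 7593 between ages, 5 and 7 between sexes and 0 in the interaction. Depth limits Ly6c1 at 65 weeks (35 to 67 counts) and family genes under 1 CPM.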
